A study of Macaca mulatta with 13 samples.

Results

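Interferon-stimulated genes, the genes that cells switch on in response to interferons, were followed in leukocytes of the rhesus macaque colon. The list held 41 gene symbols, chosen by name with earlier results of these data known. By symbol, 37 of them were found among the 34628 genes of the deposited matrix. IFIH1, GBP1, GBP2 and TAP1 were not matched by symbol and are not analysed here. RNA was measured in single cells by counting unique molecular identifiers (UMIs), tags that let every captured RNA molecule be counted separately, and levels are given in CPM, a gene's UMIs scaled to the total UMIs of the same cells.

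The study concerns graft-versus-host disease of acute type (GVHD), an attack by donor immune cells on the tissues of a transplant recipient, and by its title it asks how donor T cells come to reside in the gut. Its 13 libraries are labelled as host cells (4 libraries), donor cells (2 libraries), host and donor cells combined (3 libraries) and healthy controls (4 libraries). All groups hold thawed, viable colon cells that carry the leukocyte protein CD45 and are negative for the intravascular CD45 label (IVas), and the controls were untransplanted animals. In 2 of the 4 transplanted colon samples, host and donor cells were parted in the sort by the MHC molecule MAMU-A001, and in 2 others by computation. No drug, age or strain is given in the sources used here, and versions 2 and 3 of the 10x Genomics 3′ kit were both used, without a statement of which kit made which library. Barcodes carry a library number, from 1 to 13, and no source used here ties a number to a label. The libraries are therefore given by number, groups are not compared, and no p-value is printed.

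Interferons act through cell-surface receptors and the JAK kinases. Type I and III interferons assemble the ISGF3 complex, with STAT2 and IRF9 among its subunits, which switches on antiviral genes such as the MX, OAS and IFIT families, while interferon gamma raises the factor IRF1 and antigen processing. Interferon gamma, encoded by IFNG, comes mostly from T cells and natural killer cells, and in the gut it is known for its part in inflammation and graft-versus-host disease. The programmes overlap, so most genes of the list can answer more than 1 interferon.

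The kept cells numbered 20567 in 12 libraries, with 29 to 2858 cells per library. Library 4 was left out, since all 39 of its kept barcodes are also kept in library 6. Among other pairs of libraries, 53 kept barcodes were shared. Libraries 1, 2, 3, 5, 6 and 7 share barcodes with each other and are called barcode set 1, and libraries 8 to 13 are called set 2. T cells were taken as cells with at least 3 UMIs of CD3D, CD3E and CD3G together (11194 cells), B cells by at least 2 UMIs of MS4A1 and CD79A (3780 cells), plasma cells by JCHAIN at 1% or more of UMIs (1240 cells) and myeloid cells by S100A8 and S100A9 at 1% or more (97 cells). A further 2590 cells passed more than 1 of these gates and 1666 passed none, and both sets were left out of the classes. Median UMIs per cell were 9498 in myeloid cells, 9502.5 in plasma cells, 3337 in B cells and 3098 in T cells.

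Markers that no gate used were read in each class. In the myeloid cells the antibacterial enzyme LYZ reached 28387.5 CPM, FCN1 6436 CPM and the monocyte receptor CD14 1007 CPM, against 25.6 CPM for C1QB, a gene of tissue macrophages. B cells had 1414 CPM of CD79B, a chain of the B-cell receptor complex, against 17.0 CPM in T cells. Plasma cells had 2734 CPM of MZB1, a factor for antibody secretion, against 44.2 CPM in T cells. The neutrophil genes CSF3R and MMP8 had 52.2 and 0 CPM in the myeloid cells. The myeloid gate thus held monocyte-type cells by its leading genes. TRAC, the constant part of the T-cell receptor alpha chain, had 6.14 CPM in myeloid cells, 35.3 CPM in B cells and 6.43 CPM in plasma cells, against 1123 CPM in T cells. Natural killer cells, dendritic cells and mast cells were not gated.

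In T cells the list split into a few abundant genes and many scarce ones. IRF1, a transcription factor of the interferon gamma response, had 528 CPM over all T cells, with a 95% exact Poisson interval of 521 to 535. The immunoproteasome subunits PSMB8 and PSMB9, which help cut proteins into peptides for antigen presentation, had 537 CPM (530 to 545) and 455 CPM (448 to 462). BST2, a membrane protein that tethers virus particles, had 430 CPM (424 to 437), and ISG20, an RNA-degrading enzyme, had 391 CPM (385 to 397). IFI16, a DNA sensor, had 206 CPM (202 to 211), ISG15, a ubiquitin-like protein, 135 CPM (131 to 138), and IFI6, a small membrane protein, 105 CPM (102 to 109). The GTPase MX1 had only 8.99 CPM, its relative MX2 6.09 CPM, and the RNA-binding protein IFIT3 13.4 CPM. These intervals cover counting error only, and levels of different genes cannot be ranked beyond this, because a 3′ count depends on how well each gene's end is annotated and captured.

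**Figure D1:**
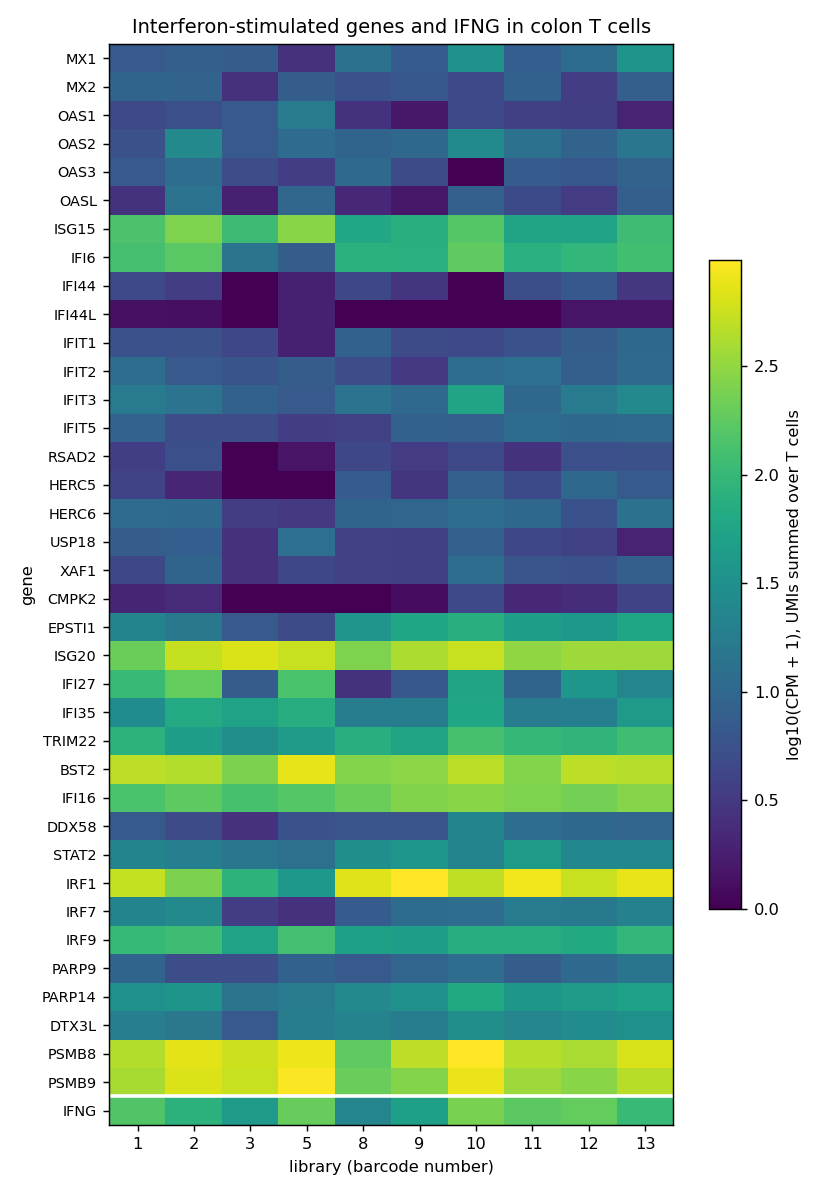
Level of each of the 37 interferon-stimulated genes, and of IFNG below the white line, in the T cells of the 10 libraries with at least 100 T cells, as log10 of CPM plus 1. IRF1, PSMB8, PSMB9, BST2 and ISG20 form bright rows in most libraries, IRF1 is dim in libraries 3 and 5, and most antiviral genes stay dark.

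T cells of different libraries differed in these genes by more than counting error. Of the 37 genes, 20 had a mean of at least 10 CPM over the 10 libraries with at least 100 T cells, and 15 of these 20 were at least 4 times as high in the highest library as in the lowest. Among all 6162 genes at that level, 47.5% did the same. The median ratio of highest to lowest library was 5.18 for the 20 genes and 3.82 for all genes. Barcode set 1 alone gave 6 genes (22.6% of all genes) and a median ratio of 2.91 (2.22 for all genes). Set 2 alone gave 4 genes (8.7% of all genes) and 2.52 (1.95 for all genes). Ratios were thus smaller inside either set, for these genes and for all genes, and a set also holds fewer libraries.

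IFI27, an interferon-induced mitochondrial protein, spread farthest. Its T-cell level was 189 CPM in library 2, 139 CPM in library 5 and 106 CPM in library 1, then 54.0 CPM in library 10, 35.9 CPM in library 12 and 22.4 CPM in library 13. Libraries 11, 3, 9 and 8 had 8.30, 6.58, 5.41 and 1.73 CPM, the last from 3 UMIs, and the intervals of these 4 libraries overlap only in part with each other and not with those of the other 6. IFI27 spanned 93.5-fold over all 10 libraries, 27.1-fold inside set 1 and 27.6-fold inside set 2. The summed epithelial markers (5 of 7 found) had 90.4 CPM in the T cells of library 1, 2.63 CPM in library 2 and 0 CPM in library 5, and the summed myeloid markers (11 of 12 found) 278, 19.6 and 51.2 CPM. The summed natural killer or innate lymphoid markers (5 of 6 found), some of which, such as KLRD1, T cells can also express, had 126 to 278 CPM in the T cells of libraries 1, 2, 5, 10, 12 and 13, the 6 libraries high in IFI27, and 41.4 to 84.3 CPM in the other 4. The summed plasma-cell markers had 348, 388 and 522 CPM in libraries 2, 5 and 10, and 80.1 to 274 CPM in the other 7. The part of these cells in the IFI27 levels was not tested.

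IRF1 and IFI6 followed other orders. IRF1 had 38.6 CPM in library 5 and 84.7 CPM in library 3, then 249 CPM in library 2, 529 CPM in library 1, and 508 to 967 CPM in the 6 libraries of set 2. IFI6 had 6.71 CPM in library 5 and 13.2 CPM in library 3, against 77.0 to 180 CPM in the other 8 libraries. Libraries 3 and 5 were thus the lowest for both genes, with no overlap of intervals with the other 8, although library 5 was among the highest for IFI27. The other classes of these libraries were low as well. B cells of library 3 had 20.2 CPM of IRF1 and 2.23 CPM of IFI6, against 223 to 779 and 25.9 to 105 CPM in the B cells of 5 other libraries, and IRF1 had 84.6 CPM in the myeloid cells of library 5, against 328 to 702 CPM in those of 4 others. Since the kit of each library is not stated, a difference between kits cannot be told apart from these differences between libraries. The transcription factor IRF7 was also lowest there, with 4 UMIs in library 5 and 3 UMIs in library 3, or 1.68 and 2.47 CPM, against 6.35 to 24.9 CPM elsewhere.

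ISG15 was highest in libraries 5 and 2, with 284 and 256 CPM, and lowest in libraries 12 and 11, with 51.3 and 55.2 CPM. PSMB8 had 976 CPM in library 10 and 815 CPM in library 5, and 181 CPM in library 8, where PSMB9 was also lowest at 202 CPM. Without library 8 the range of PSMB8 between libraries was 1.26 on the log2 scale, in place of 2.43. PSMB9 peaked at 928 CPM in library 5. BST2 had 765 CPM in library 5 and 252 to 495 CPM in the other 9 libraries, and its range fell to 0.97 on the log2 scale without library 5, against 1.60 with it. ISG20 ran from 205 CPM in library 1 to 662 CPM in library 3. IFI16 varied least of the abundant members, with 131 to 178 CPM in set 1 and 206 to 288 CPM in set 2, sets that did not overlap. MX1 stood at 34.3 CPM in library 13 and 32.4 CPM in library 10, where it rests on 9 UMIs, and at 1.68 to 12.1 CPM elsewhere. Without library 5, in which MX1 had 4 UMIs, its range was 2.53 on the log2 scale, against 4.19 with it.

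**Figure D2:**
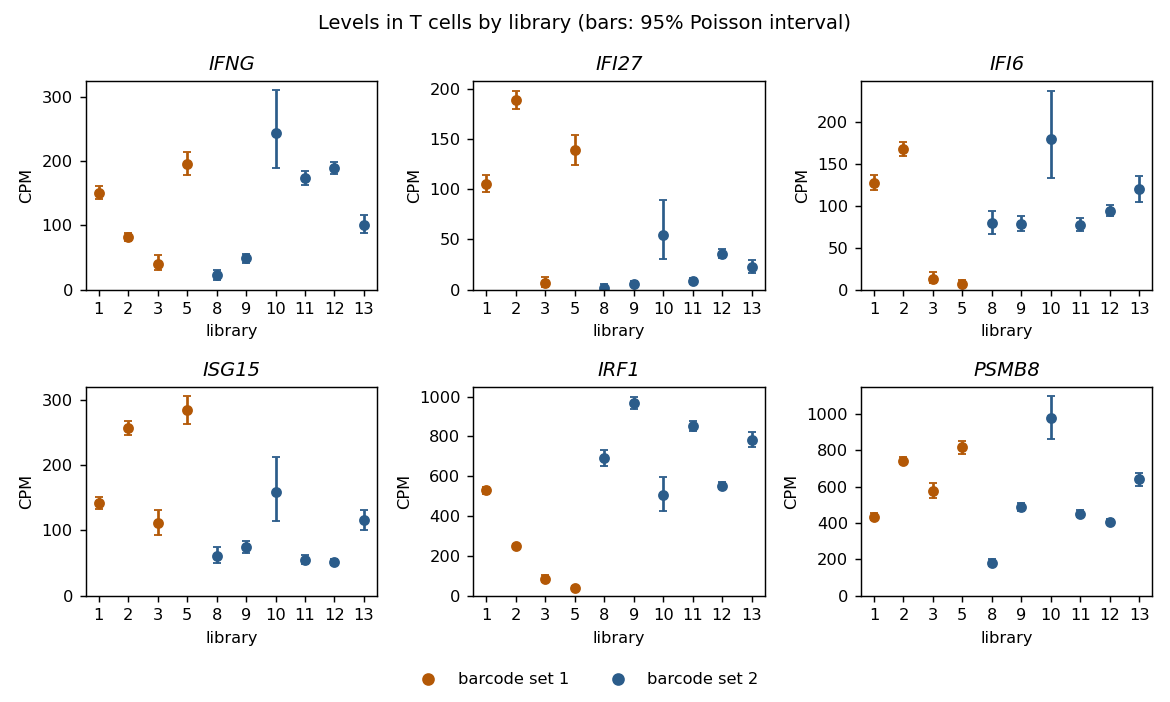
T-cell levels (CPM, linear axes from 0) of IFNG and 5 interferon-stimulated genes in each of 10 libraries, coloured by barcode set, with 95% exact Poisson intervals as bars. IFI27 is high in libraries 1, 2 and 5, IFI6 and IRF1 are lowest in libraries 3 and 5, and PSMB8 is lowest in library 8 and highest in library 10.

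Among the gated classes, IFNG itself was read almost wholly in T cells. Myeloid cells held 1 IFNG UMI (1.02 CPM), B cells 27 (1.68 CPM) and plasma cells 8 (0.598 CPM), against 5064 in T cells (128 CPM). In the T cells of the 10 libraries IFNG was lowest in library 8 at 22.0 CPM, library 3 at 40.3 CPM and library 9 at 48.4 CPM. Libraries 2 and 13 had 81.4 and 101 CPM. Libraries 1, 11, 12 and 5 had 151, 174, 189 and 196 CPM, and library 10 had 245 CPM from 68 UMIs (95% interval 190 to 310). Set beside these values, the sum of the 21 antiviral genes, called the core list here, was 180 CPM in library 3, 267 CPM in library 8 and 277 CPM in library 9, the libraries low in IFNG. It was 605 CPM in library 10, which had the most IFNG, but 567 CPM in library 2 with middling IFNG, and only 281 and 287 CPM in libraries 11 and 12, where IFNG was high. Libraries 1, 5 and 13 had core sums of 391, 375 and 453 CPM. The core list holds IFI6, which was low in the T cells of libraries 3 and 5. IFI27 was below 10 CPM in all 3 libraries with the least IFNG and also in library 11. IRF1, a target of interferon gamma, was highest in library 9, among the libraries with little IFNG, and lowest in library 5, among those with much. IRF1 was also low in the myeloid cells of library 5 and the B cells of library 3. Its T-cell levels in these 2 libraries are therefore not read as an answer to IFNG or a lack of it. No correlation is given, because which libraries come from separate animals is not known.

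**Figure D3:**
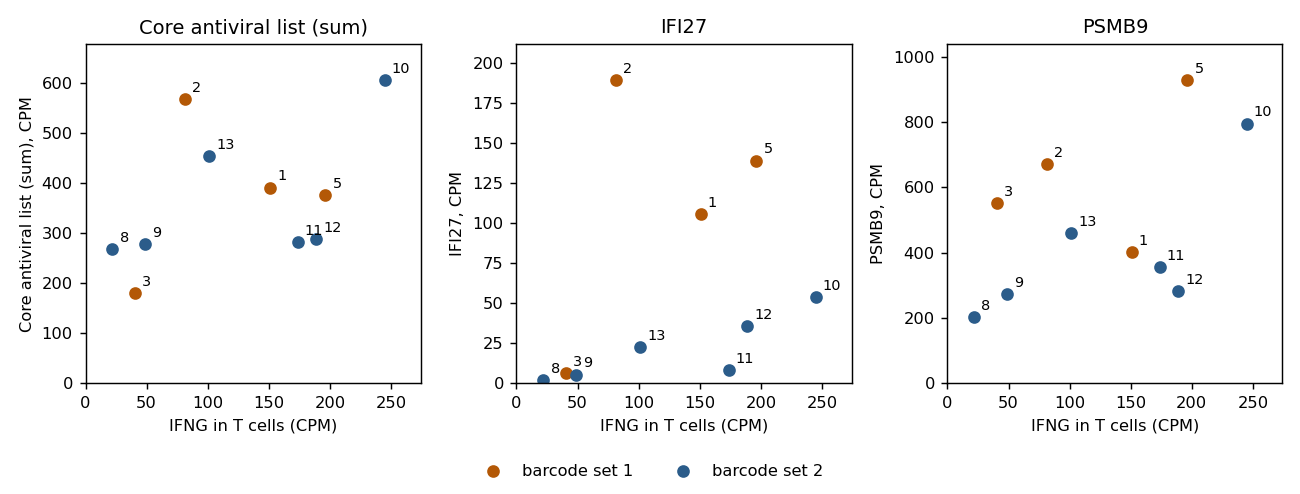
Summed core antiviral genes, IFI27 and PSMB9 in T cells (vertical axes, CPM) beside IFNG in the same T cells (horizontal axes, CPM), 1 point per library with its number, coloured by barcode set. Libraries 3, 8 and 9 lie low for IFNG, the core sum and IFI27, library 10 lies high for IFNG and the core sum, and libraries 11 and 12 have much IFNG beside a low core sum.

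Between T cells with and without IFNG RNA of their own, no interferon-stimulated gene differed in the same direction in every library, and few genes at large did. The comparison took 1843 T cells with at least 1 IFNG UMI and 9314 without, as the log2 ratio of CPM inside each of 10 libraries, over genes with at least 20 UMIs. None of 36 tested interferon-stimulated genes was higher in every library (0.372% of all genes were), and none was lower in every library (0.752% of all genes were). Libraries 3, 8 and 10 held only 25, 25 and 21 T cells with IFNG, in which a scarce gene such as IFIT1 had 0 UMIs. A call in all 10 libraries was thus hard to reach, and its absence is not read as a result about these genes. Their median log2 ratio was -0.06, against -0.07 for all genes, and it was 0.04 without library 3. Without library 8, 2 of the genes were higher in all remaining libraries, with no share over all genes given for that setting. PSMB8 and PSMB9 were higher in the cells with IFNG in 9 of 10 libraries, with median log2 ratios of 0.14 and 0.21, which 1.76% of all genes matched in number of libraries. The cells with IFNG had a median of 3589 UMIs and the others 3029, and this comparison was added after the data were seen.

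Between CD8 and CD4 T cells, ISG20 alone differed in the same direction in every library, and this call did not hold under 3 alternatives. Cells with a CD8A or CD8B UMI and no CD4 UMI (3647 cells) were set against cells with CD4 and neither CD8 gene (1901 cells). Of 36 genes none was higher in every library (0.774% of all genes) and 1, ISG20, was lower in all 10 (1.43% of all genes), with a median log2 ratio of -0.44. No gene of the list was lower in every library when cells were counted in every gate they pass, after thinning to 1500 UMIs, or with stricter gates, and without library 5 the count was 2. Shares over all genes are not given for these settings, so these counts are not read as particular to the list. IFIT1 and IFIT2, which bind viral RNA or act beside proteins that do, were higher in only 7 and 8 of 10 libraries. The median over the genes was 0.00, as over all genes.

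A small share of T cells held several antiviral UMIs. After each cell was thinned to 1500 UMIs, 415 of 11194 T cells (3.71%, 95% exact binomial interval 3.36 to 4.07) had at least 3 UMIs of the core list, and 63.5% had none. Unthinned the share was 15.3%. By library the thinned share was 10.3% in library 10 (5.46 to 17.4), 7.51% in library 2 (6.42 to 8.72) and 5.67% in library 13 (4.14 to 7.57). It was 4.18% in library 5 and 3.61% in library 1, and 1.295% to 2.13% in libraries 3, 8, 9, 11 and 12. The intervals of libraries 2, 10 and 13 do not reach those of libraries 3, 8, 9, 11 and 12. In the same way 26 of 97 myeloid cells (26.8%, 18.3 to 36.8), 44 of 1240 plasma cells (3.55%, 2.59 to 4.73) and 12 of 3780 B cells (0.317%, 0.164 to 0.554) had at least 3 core UMIs. These intervals pool libraries that differed, since the myeloid share was 0 of 26 cells in library 5 (0 to 13.2%) and 7 of 13 cells (53.8%) in library 13. Immunoglobulin and gate genes made up 62.0% of plasma-cell UMIs and 0.513% of T-cell UMIs. At 1500 UMIs a plasma cell thus held fewer UMIs of other genes than a T cell, and the 2 shares are not alike in depth.

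ISG15 gave 46.1% and IFI6 25.9% of the core UMIs in these T cells, EPSTI1 4.86%, IFIT3 3.39% and MX1 3.26%. Without ISG15 and IFI6 the share of T cells was 59 of 11194 (0.527%), with the highest library shares at 2.59% in library 10 and 1.85% in library 13. On the same count, 18 of 97 myeloid cells (18.6%), 1 of 1240 plasma cells (0.0806%) and 3 of 3780 B cells (0.0794%) had at least 3 core UMIs. Genes outside the core list were also read in the T cells with at least 3 core UMIs, against the other T cells at the same depth. Directions were counted inside each library, while the CPM values here pool all libraries. Library 2 gave 158 of the 415 cells, so the pooled values also carry differences between libraries. BST2 was 578 CPM in them and 417 CPM in other T cells, and ISG20 was 618 and 394 CPM. Both were higher in 9 of 10 libraries, which 0.443% of 10382 genes reached. They were 2 of the 16 members outside the core list. Of these 16, 12 were higher in more than 5 libraries, 3 in exactly 5 and 1 in fewer. No share over all genes is given at that level, so the 12 are not read as particular to the list. PARP9 was higher in only 3 libraries, and IRF1 was 498 CPM in these cells and 587 CPM in other T cells, higher in 5. IFNG was 207 CPM against 116 CPM and higher in 7 of 10 libraries, likewise without a share over all genes.

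**Figure D4:**
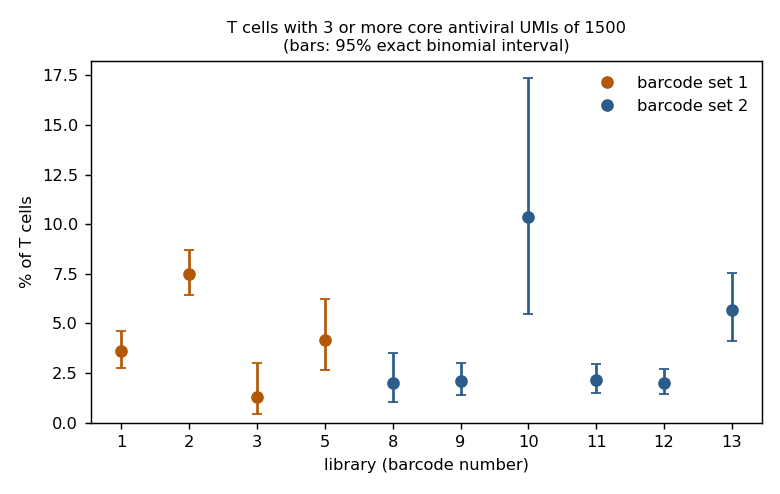
Share of T cells with at least 3 UMIs of the 21 core antiviral genes after thinning to 1500 UMIs, in each of 10 libraries, with 95% exact binomial intervals as bars. Libraries 10, 2 and 13 are highest at 10.3%, 7.51% and 5.67%, and libraries 3, 8, 9, 11 and 12 lie between 1.295% and 2.13%.

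Some antiviral RNAs, with MX1, MX2 and IFI27 among them, were higher in myeloid cells than in T cells of the same library. Others were mixed, or were called lower on very few UMIs. The ratio was taken where both classes had at least 10 cells, in libraries 1, 5, 10, 12 and 13, with 96 myeloid and 5181 T cells. Of 37 genes tested, 12 were higher in myeloid cells in every library (9.26% of all 10792 genes were) and 2 were lower in every library (29.6% of all genes were). The median log2 ratio of the genes was 0.42, against -0.97 over all genes. By role, the higher ones were 7 of 21 core antiviral genes, 2 of 4 transcription factors, 1 of 2 sensors, 1 of 2 immunoproteasome subunits and 1 of 5 other members, with none of PARP9, PARP14 and DTX3L, and both lower ones were core antiviral genes.

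The GTPase MX1, which blocks the replication of many viruses, had 305, 68.8, 541, 284 and 725 CPM in the myeloid cells of libraries 1, 5, 10, 12 and 13, against 5.88, 1.68, 32.4, 10.5 and 34.3 CPM in their T cells. The classes did not overlap, and the median log2 ratio was 4.74 (3.95 to 5.66 over libraries). MX2, which restricts retroviruses, had 123, 106, 142, 110 and 186 CPM in myeloid cells, against 8.30, 6.71, 3.60, 2.47 and 6.96 CPM in T cells, a median log2 ratio of 4.49. That median is the ratio of library 10, which rests on 10 myeloid UMIs and 1 T-cell UMI. IFI44 had 41.01, 101, 171, 48.7 and 180 CPM in myeloid cells, against 3.63, 0.839, 0, 5.69 and 1.99 CPM in T cells. Its log2 ratios lay between 3.07 and 6.36, with 0, 2 and 4 UMIs in the T cells of libraries 10, 5 and 13. Myeloid and T cells did not overlap for either gene.

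IFI27 reached 1488, 402, 2478, 658 and 2089 CPM in the myeloid cells of those libraries, against 106, 139, 54.0, 35.9 and 22.4 CPM in their T cells, with a median log2 ratio of 4.19. Among these 5 libraries, library 5 was the lowest in myeloid cells and the highest in T cells. IFIT2, an RNA-binding protein, had 135, 31.7, 228, 325 and 140 CPM in myeloid cells, against 10.7, 6.71, 10.8, 7.05 and 9.44 CPM in T cells (median 3.82). OASL, a relative of the OAS enzymes, had 135, 42.3, 85.4, 40.99 and 53.2 CPM, against 1.73, 8.81, 7.20, 2.35 and 6.96 CPM in T cells (median 3.13). The OASL median is the ratio of library 10, on 6 myeloid and 2 T-cell UMIs. IRF7, the factor that amplifies type I interferon production, had 93.7, 10.6, 128, 118 and 140 CPM, against 21.3, 1.68, 10.8, 15.2 and 19.4 CPM in T cells (median 2.82). The classes did not overlap between libraries for IFI27, IFIT2 and OASL, and overlapped for IRF7 through library 5, where its myeloid level rests on 2 UMIs.

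The other members higher in every library were XAF1 (median log2 ratio 1.68, on 17 myeloid UMIs), IFI16 (1.46), IFIT3 (1.25), the ISGF3 subunit STAT2 (0.73) and PSMB8 (0.37). STAT2 had only 2 myeloid UMIs in library 10. IFIT5 and USP18, an enzyme that removes ISG15 and restrains signalling, were the 2 lower ones, on 1 and 3 myeloid UMIs. A myeloid count of 0 beside any T-cell UMI enters as lower. IFIT5 had 0 in libraries 5, 10, 12 and 13, and USP18 in libraries 10 and 13. These 2 calls are therefore not read as results about the genes. ISG15 was higher in 4 of 5 libraries (median 0.37) and lower in library 5, with 58.2 CPM in myeloid cells and 284 CPM in T cells. IFI6 was likewise higher in all but library 5, where it had 5.29 CPM in myeloid cells and 6.71 CPM in T cells, against 143 to 778 CPM in the myeloid cells of the other 4 libraries. Library 5 was thus low in IFI6 in both classes. When cells were thinned to 1500 UMIs, 6 of the genes in place of 12 were higher in every library. The share over all genes after thinning is not given, so this fall cannot be read as particular to these genes.

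Other genes of the pathway differed between myeloid and T cells in both directions. The enzyme IDO1, an interferon gamma target that degrades tryptophan, had 910 to 3134 CPM in myeloid cells, against 0.420 to 34.4 CPM in T cells, with the highest T-cell value in library 1, where T cells also held 278 CPM of myeloid markers. The receptor chains IFNGR2 (median log2 ratio 2.41) and IFNGR1 (0.94) were higher in every library, as were the kinase JAK2 (1.04), the inhibitors SOCS3 (3.18) and PTPN2 (0.97), the factor IRF8 (2.33), PSMB10 (1.44) and TAPBP (0.86). In library 5 IFNGR2 rests on 1 UMI in each class. Lower in every library were the kinase JAK1 (-0.75), the factor STAT3 (-0.92) and IFNG, which had 1 UMI in all these myeloid cells. The chemokines CXCL9, CXCL10 and CXCL11 had too few UMIs to test, and no IFNB1 UMI was found in any class.

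B cells were lower than T cells in more of these genes than they were higher. The ratio was taken in 6 libraries (2, 3, 8, 9, 11 and 12), with 3759 B cells and 8126 T cells. Of 36 genes tested, 8 were lower in B cells in every library (12% of all genes) and 2 were higher in every library (11.2% of all genes), and the median log2 ratio was -0.54, against 0.10 over all genes. The lower ones were 6 of 20 core antiviral genes and 2 of 5 other members, and none of the 4 transcription factors was called. With library 2 left out, 4 were higher in every library. With immunoglobulin and gate genes left out of the totals, 4 were also higher (12.7% of all genes), PSMB8 and TRIM22 being added. When cells were counted in every gate they pass, none was higher. No share over all genes is given for this setting or for library 2 left out.

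HERC5, the ligase that attaches ISG15 to other proteins, was higher in B cells, with 2.07, 18.6 and 87.3 CPM as lowest, median and highest library, against 0, 2.78 and 9.28 CPM in T cells, and a median log2 ratio of 2.85. IFI16 was the other, with 143, 281 and 420 CPM in B cells and 131, 218 and 267 CPM in T cells, and a median log2 ratio of 0.30. B and T libraries overlapped for both genes, so the calls rest on the ratios inside libraries. Counting cells in every gate turned the median log2 ratio of IFI16 to -1.04. BST2 was lower, with 86.0, 148 and 303 CPM in B cells, against 252, 284 and 493 CPM in T cells (median log2 ratio -1.07). IFI6 had 2.23, 36.9 and 105 CPM in B cells, against 13.2, 78.8 and 167 CPM in T cells (-1.21, but 0.26 when cells were counted in every gate), and ISG20 had 216, 241 and 322 CPM, against 258, 389 and 662 CPM in T cells (-0.60). EPSTI1 (-1.40), IFIT1 (-1.88, on 20 B-cell UMIs) and the 3 double-stranded RNA sensors OAS1, OAS2 (-1.04) and OAS3 (-0.96) were also lower. No OAS1 UMI was found in the B cells, which makes it at least 16.0-fold lower than in T cells, with a floor of 3 UMIs over all B cells.

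ISG15 was lower in B cells of 5 of 6 libraries (median log2 ratio -2.52), with 4.38 to 119 CPM in B cells and 51.3 to 256 CPM in T cells. In library 12 it was higher, at 87.3 CPM in 41 B cells and 51.3 CPM in T cells. B cells were highest in ISG15, IFI6 and IFI27 in library 2 (119, 105 and 169 CPM, in 65 cells), the library in which T cells also had the most of all 3 among these 6 libraries (256, 167 and 189 CPM). Among other pathway genes, CIITA, the activator of MHC class II genes, was higher in B cells (median log2 ratio 5.35), as were IRF8 (4.58), the phosphatase PTPN6 (0.80) and TAPBP (0.44). IFNGR1 (-0.68), STAT3 (-0.44), SOCS3 (-1.43), PIAS1 (-0.64) and B2M, the invariant chain of MHC class I (-1.26), were lower in every library.

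**Figure D5:**
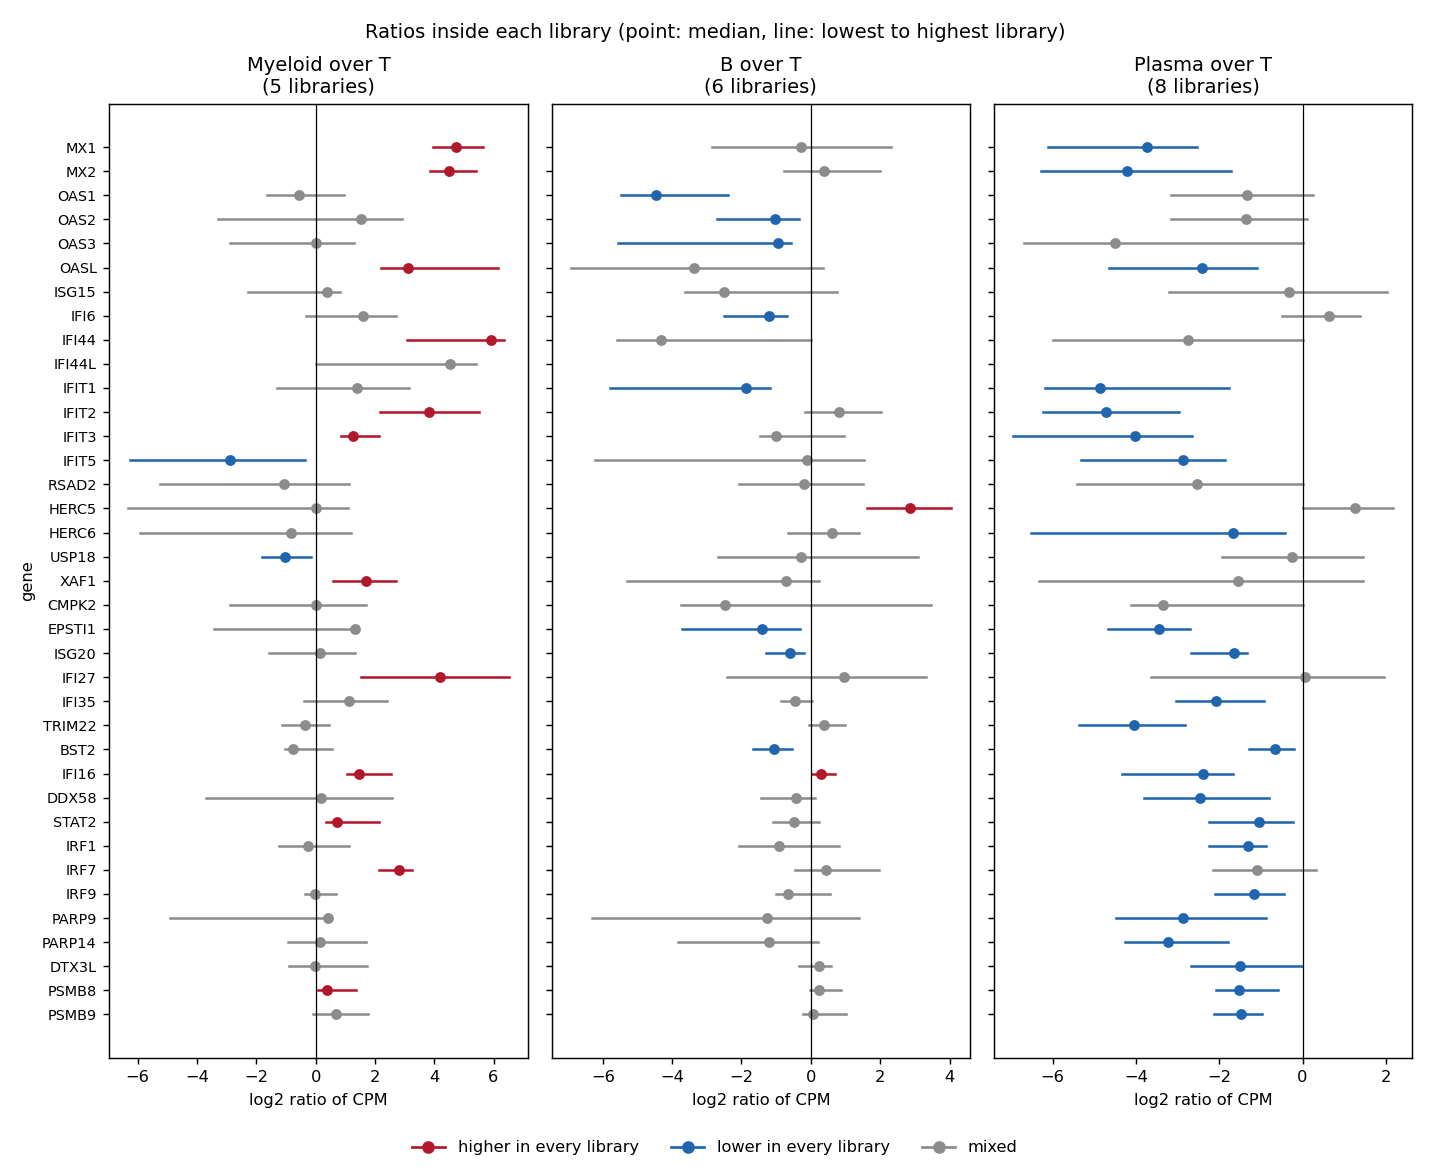
Log2 ratio of CPM inside each library for the 37 genes, in myeloid over T cells (5 libraries), B over T cells (6 libraries) and plasma over T cells (8 libraries), with the median as a point and the lowest to highest library as a line. Red genes were higher and blue genes lower in every library (12 and 2, 2 and 8, 0 and 23), with all UMIs of the cells in the totals, and grey genes were mixed. A count of 0 enters with a prior of 0.5 counts, so a ratio against it has no exact size.

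Plasma cells were lower than T cells in most of these genes, as in many genes at large, and the count depended on the gates and on whether immunoglobulin RNA entered the totals. The ratio was taken in 8 libraries (2, 3, 5, 8, 10, 11, 12 and 13), with 1225 plasma and 8254 T cells. None of 36 genes was higher in every library (1.75% of all genes) and 23 were lower in every library (47.7% of all genes), with a median log2 ratio of -1.88, against -1.53 over all genes. The lower ones were 9 of 20 core antiviral genes, both sensors, 3 of 4 transcription factors, both immunoproteasome subunits, PARP9, PARP14 and DTX3L, and 4 of 5 other members. Immunoglobulin and gate genes made up 62.0% of plasma-cell UMIs and 0.513% of T-cell UMIs. With these left out of the totals, 11 genes were lower (14.2% of all genes) and 2 higher (7.39% of all genes), and the median was -0.47, against -0.30 over all genes. When cells were counted in every gate they pass, with all UMIs, 3 genes were lower and the median was -1.22. No share over all genes is given for this setting.

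The 11 genes lower with either total were MX1, MX2, OASL, IFI16, IFIT1, IFIT2, IFIT3, IFIT5, EPSTI1, PARP14 and TRIM22. MX1 had 0, 0.374 and 1.81 CPM as lowest, median and highest library in plasma cells, against 1.68, 8.82 and 34.3 CPM in T cells. TRIM22, an antiviral ubiquitin ligase, had 0, 5.10 and 10.2 CPM, against 28.8, 81.0 and 130 CPM in T cells, and its median log2 ratio was -4.05 with all UMIs and -2.73 without immunoglobulin and gate genes. IFI16 had 5.74, 49.8 and 59.9 CPM, against 131, 218 and 288 CPM in T cells (-2.38 and -1.02). EPSTI1 had 0, 2.19 and 7.05 CPM, against 3.78, 36.9 and 75.6 CPM in T cells. Plasma and T libraries did not overlap for TRIM22 and IFI16, and overlapped for MX1 through the T cells of library 5 and for EPSTI1 through those of libraries 5 and 3. MX2, IFIT1 and IFIT2 had 1 UMI each in plasma cells.

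IFI6 and BST2 were the 2 genes higher in plasma cells once immunoglobulin and gate genes were left out, with median log2 ratios of 1.99 and 0.76. With all UMIs counted, IFI6 had 6.54, 158 and 373 CPM in plasma cells, against 6.71, 86.8 and 180 CPM in T cells (0.63), and BST2 had 135, 306 and 379 CPM, against 252, 445 and 765 CPM in T cells (-0.66). BST2 therefore changed direction with the total used, and so did the medians of STAT2, IRF1, IRF9, ISG15, IRF7, USP18 and OAS1. The median log2 ratio of ISG15 was -0.33 with all UMIs and 1.04 without immunoglobulin and gate genes. HERC5 was higher in 6 and lower in 0 of 8 libraries with all UMIs, with medians of 1.26 and 2.55. IFI6 was lowest in library 5 in plasma cells too, with 3 UMIs. The kinase JAK1 (-2.52 and -1.19), STAT3 (-3.23 and -1.76), PTPN2 (-2.16 and -0.77) and IRF8 (-3.11 and -2.30) were lower in plasma cells both ways.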

How the data were processed

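Single-cell 3′ RNA was counted in sorted colon leukocytes. The authors' deposited raw matrix holds UMI counts per gene and barcode. Per the submitters' processing notes, Cell Ranger 3.1.0 and Seurat 3.1 were used, and the header of the count file gives software version 3.1.0. The authors' second matrix holds natural log values and served only to find the cells and genes they kept. No source used here gives the genome build or says how reads matching several related genes (the MX, OAS or IFIT families) were counted. Library totals over all barcodes ran from 3128386 to 19655788 UMIs, and every kept cell had at least 1502. Columns of other samples were 0.

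Counts were summed per class and library (numpy 2.4.6, scipy 1.17.1, pandas 2.3.3), and log2 ratios used a prior of 0.5 counts. A call means higher or lower in every library with at least 10 cells of both classes, over genes with at least 20 UMIs. The ratio step was tested on simulated data. Values per library are given for up to 8 called members in each direction, for the 8 most abundant members and for IFNG. No doublet caller was run. The planned edgeR comparison of label groups was not made, since no barcode number is tied to a label. Members, gene lists and comparisons were chosen with earlier results of these data known. A gene of the pathway list is not reported here. Alternatives are in the closing section.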

Additional observations from a re-analysis of the deposited data

How the results depend on the processing

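Counting cells in every gate they pass gave a median log2 ratio of 1.05 for myeloid over T cells with 1 gene lower in every library, 0 genes higher in B cells, and in plasma cells a median of -1.22 with 3 genes lower. It also reversed IFI6 (0.26) and IFI16 (-1.04) in B over T cells. The added cells had a median of 11006 UMIs, and the cause was not tested. Leaving immunoglobulin and gate genes out of the totals gave 4 genes higher in B cells and, in plasma cells, 2 higher, 11 lower and a median of -0.47. Among members lower in plasma cells of every library with all UMIs, the medians of STAT2 (0.49), IRF1 (0.023), IRF9 (0.21) and BST2 (0.76) reversed. Thinning to 1500 UMIs gave 6 genes higher in myeloid cells and 1 in B cells. Myeloid cells had 6 genes lower with at least 20 cells of both classes (2 libraries) and 1 lower with at least 100 UMIs per gene. Stricter gates gave 1 gene higher in B cells, and a prior of 2 counts a plasma median of -1.57. Shares over all genes are given only for the main setting and for totals without immunoglobulin and gate genes. Counts under the other alternatives, here and below, therefore cannot be read as particular to these genes.

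For T cells with IFNG the median was 0.23 and 1 gene was higher when every gate counted, and 1 was higher after thinning. For CD8 over CD4 T cells, 1 gene was higher after thinning, and 0 were lower when every gate counted, after thinning and with stricter gates. The median log2 range of T-cell levels was 1.54 in barcode set 1 and 1.41 in set 2, against 2.37 in all libraries, and that of IFNG was 2.27 in set 1, against 3.47. The share of T cells with core UMIs was 15.4% in whole cells, 11.3% at 2 or more UMIs, 0.762% at 5 or more and 0.529% without ISG15 and IFI6, over the 10 libraries.

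Leaving out each library in turn gave 2 to 4 genes higher in B cells, medians of -0.066 to 0.036 and 0 to 2 genes higher for T cells with IFNG, and 1 to 2 genes lower in CD8 T cells. The barcode sets, the list without ISG15 and IFI6, and the comparisons by IFNG and by CD8 and CD4 were chosen after seeing the data. Among values of single genes, 3079 kept their direction within the spread between libraries, 112 moved and 6 reversed, and among counts, medians and shares over the list 255 stayed so, 31 moved and 2 reversed. No paired analysis was possible because no library is tied to a label or a replicate number, and the ratios between classes were already taken inside each library. Depth limits the scarce genes, of which several rest on 1 to 3 UMIs in plasma or myeloid cells.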

Other observations

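IFNL1, which encodes a type III interferon, was read in T cells at 4.62 CPM (183 UMIs) and by 3 UMIs in each of the myeloid, B and plasma classes. In CD8 over CD4 T cells its median log2 ratio was 1.25, on 93 CD8 and 18 CD4 UMIs, and it was higher in 7 of 10 libraries. No share over all genes is given at that level. IFNGR2, a chain of the interferon gamma receptor, had 1 UMI in the T cells of library 5 (0.420 CPM) and 1 UMI in its myeloid cells (5.29 CPM), against 43.2 to 91.6 CPM in the T cells and 226 to 412 CPM in the myeloid cells of libraries 1, 10, 12 and 13. Library 3 was also low, with 4.11 CPM in T cells (5 UMIs) and 2.07 CPM in B cells, and the T cells of library 2 had 15.0 CPM, against 29.2 to 45.4 CPM in those of libraries 8, 9 and 11. Libraries 6 and 7 had 34 and 3 T cells and were below the limit of 100 T cells. Their IFNG rests on 13 and 5 UMIs.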
